A study of Drosophila melanogaster with 27 samples.

Results

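Whole ovaries of *Drosophila melanogaster* were compared between 96 h and 120 h after egg laying (AEL), the mid and late stages of terminal filament formation, in 3 RNA-seq libraries of each stage. These 6 libraries, of 27 in the series, were taken by their stage and tissue labels, and all genes of the whole ovary count table were considered, 16257 in number, of which 10060 had enough counts to be tested. The animals were of the Oregon R strain, reared at 25°C and 60% humidity on food with yeast, as larvae of the third instar at 96 h and at the larval to pupal transition (white pupae) at 120 h, and each library came from a pool of dissected ovaries. The series also holds 3 libraries of whole ovaries at 72 h, which entered the same fit, and libraries of sorted cells that carried a GFP driven by *bab:GAL4* (somatic cells) or *nos:GAL4* (germ cells), from 3 samples per tissue and stage.

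The larval ovary holds germ cells surrounded by somatic cells of several kinds. Terminal filaments are stacks of flattened somatic cells that form at the anterior of the ovary, and each later heads an ovariole, the egg-producing unit of the adult. Apical or sheath cells then migrate between the stacks and lay down basement membrane, and intermingled cells contact the germ cells. The steroid hormone ecdysone times these steps: it binds the receptor of EcR and Usp, which switches on a cascade of early transcription factors, and these in turn control later genes.

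Sequencing depth ranged from 11615879 to 23310275 expected counts per library. Levels are given in CPM, counts per 1000000 with library sizes scaled by the TMM method. Before that scaling, 3 counts amounted to 0.129 to 0.258 per 1000000 at these depths. Such limits cover counting error only. The labelled tissue was checked against its markers. The summed level of 6 germ cell markers (*nos*, *vas*, *bam*, *aub*, *AGO3* and *bgcn*) lay between 558 and 651 CPM at 96 h and between 542 and 639 CPM at 120 h. That of 5 somatic gonad markers (*bab1*, *bab2*, *tj*, *zfh1* and *eya*) lay between 920 and 1295 CPM and between 1486 and 1938 CPM. Only *zfh1* and *eya* of these 5 were called higher, and *tj* went from 368 to 261 CPM. The somatic sum was 331 to 1697 CPM in sorted germ cells at 96 h. Fat body markers were present as well: the sum of 9 was 33197 to 79213 CPM at 96 h and 5633 to 10265 CPM at 120 h, against 1.96 to 9.77 CPM in the sorted somatic cells of these stages. The summed level of 7 muscle markers was 122 to 534 CPM at 96 h and 7.69 to 31.9 CPM at 120 h, and that of 7 hemocyte markers was 209 to 563 CPM and 147 to 161 CPM. In sorted somatic cells the muscle sum was 2.71 to 14.8 CPM and 10.9 to 17.6 CPM, and the hemocyte sum 50.7 to 115 CPM and 131 to 159 CPM. For both lists, whole ovaries and somatic cells thus overlapped at 120 h. In the bulk whole ovary libraries, fewer cells of a type and less RNA per cell cannot be told apart.

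**Figure D1:**
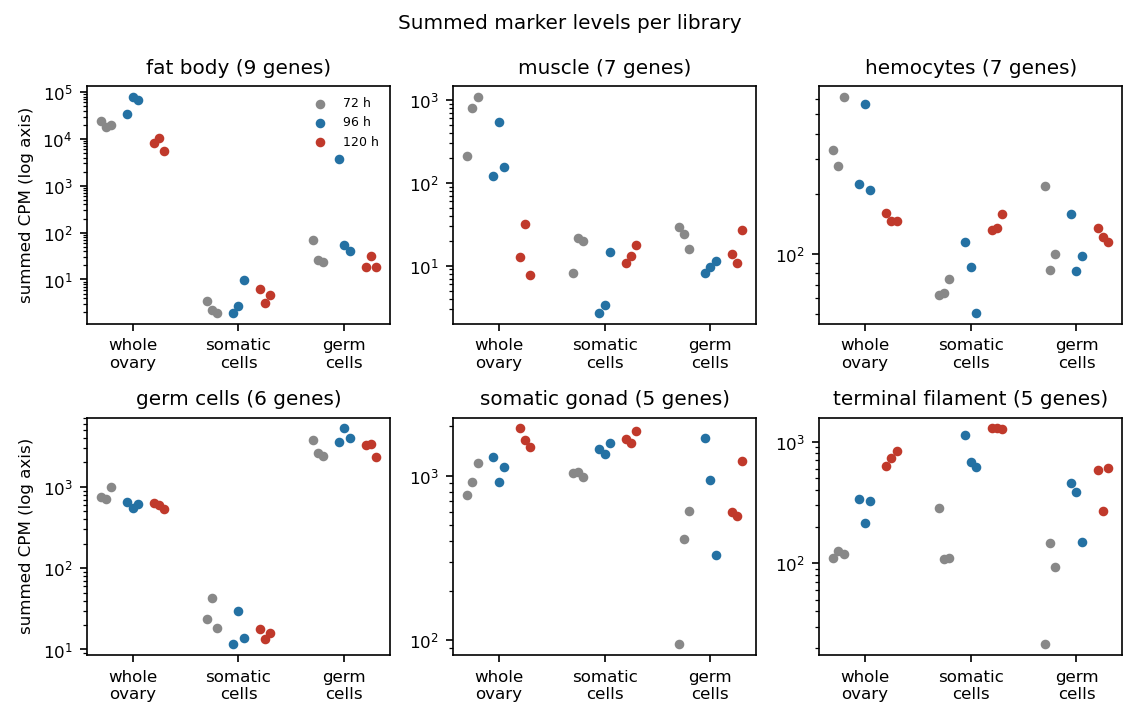
Summed CPM (log axis) of the markers of 6 cell types in each library, by tissue (horizontal axis) and by stage (color). Each point is 1 library. Fat body and muscle markers in whole ovaries were lower at 120 h than at 96 h. Fat body markers were near 0 in sorted somatic cells, while muscle and hemocyte markers of sorted cells overlapped with those of whole ovaries at 120 h. Germ cell markers in whole ovaries overlapped between 96 and 120 h.

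Between 96 and 120 h, 1491 of the 10060 tested genes changed at an adjusted p under 0.01, a share of 14.8%. Higher levels at 120 h were called for 579 genes (5.76%) and lower levels for 912 (9.07%), by the quasi-likelihood test of edgeR with Benjamini-Hochberg adjustment. The falls were deeper than the rises. The median log2 fold change was -2.47 among the genes that fell and 1.34 among those that rose, against -0.11 over all tested genes, and 391 genes fell by over 8-fold where 115 rose by as much. Genes that fell held 12.5% of the counts at 96 h and 2.88% at 120 h, and genes that rose held 3.19% and 9.99%. From 72 to 96 h, a comparison that shares the 96 h libraries, 100 genes (0.994%) were called. This count was not retried with single libraries left out or with other tools. Its 72 h group holds early replicate 3, on which the count from 96 to 120 h depended, as given below. How much smaller the earlier change was is therefore uncertain.

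The number of calls depended on single libraries. It was 2939 without early replicate 3, a 72 h library of neither stage compared, and 899, 810, 739, 695 and 869 without mid replicate 2, mid replicate 3, late replicate 1, late replicate 2 and late replicate 3. The 6 libraries of 96 and 120 h fitted alone gave 2618 calls. A set of 628 genes (263 higher, 365 lower) was called with all 9 libraries and again in each of the 9 fits that left out 1 of them. Genes given as not called were not called by edgeR with all 9 libraries, and those that DESeq2 called are named. Of these, all but *arm*, *Act5C* and *Fbp1* were also called without early replicate 3 and with the 6 libraries of 96 and 120 h alone. On a single set of simulated counts, drawn with the spread that edgeR had estimated, 23 of 137 calls by DESeq2 were false, against 0 of 69 by edgeR. DESeq2 tested 10682 genes there and edgeR 10063, so this does not rate the DESeq2 calls on the real counts. The genes named as changed below belong to the set of 628 unless the libraries on which their call rested are given.

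**Figure D2:**
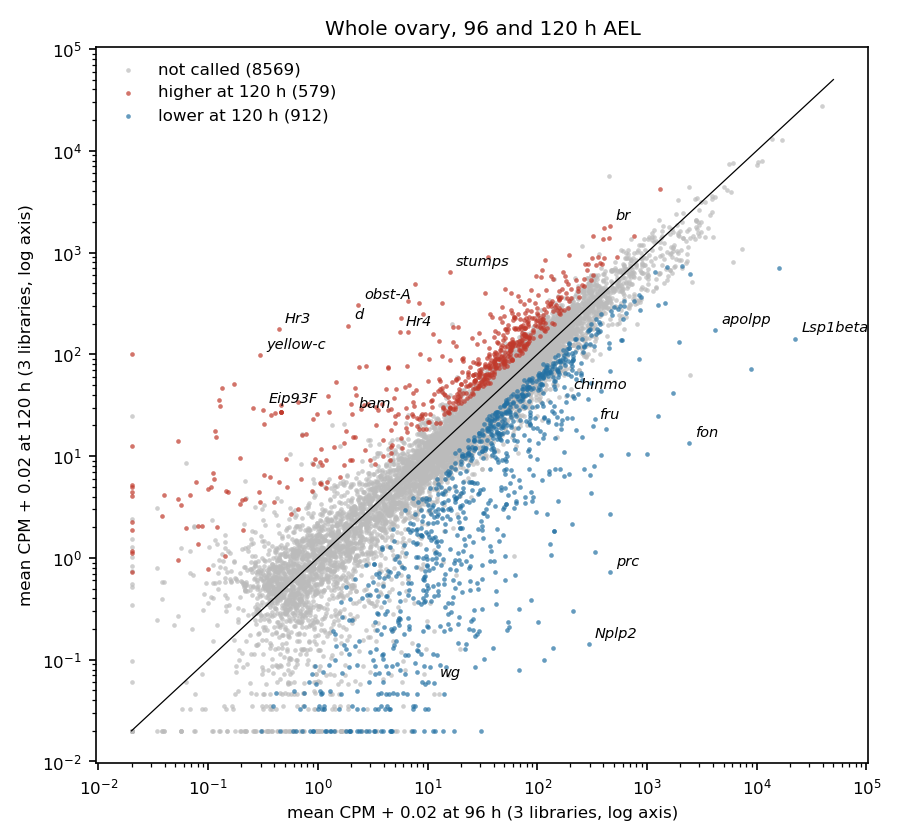
Mean CPM at 120 h against mean CPM at 96 h (both log axes, 0.02 CPM added) for the 10060 tested genes, 3 libraries each. Red points are the 579 genes called higher at 120 h, blue points the 912 called lower, and gray points those not called. Genes that rose from near 0 include *Hr3*, *d* and *yellow-c*, and genes that fell from high levels include *Lsp1beta*, *fon*, *prc* and *Nplp2*.

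Several transcription factors of the ecdysone cascade rose. Of 26 tested genes for ecdysone receptors and transcription factors, 10 (38.5%) were higher at 120 h and none was lower. Over all tested genes the shares were 5.76% higher and 9.07% lower, and the counts of each list below are to be read against them. *Hr3* (also Hr46, chromosome 2R, 10203995 to 10237348 of the BDGP6 assembly), a nuclear receptor of the middle of the cascade, stood at 0.689, 0.46 and 0.108 CPM in the 96 h libraries and 194, 174 and 168 CPM in the 120 h libraries. It was thus almost silent in all 3 mid libraries and well expressed in all 3 late libraries (log2 fold change 8.66 ± 0.37, adjusted p = 2.22e-06; ± is the standard error). *Hr4* (chromosome X, 1941940 to 2007956), a nuclear receptor that acts beside it, was at 6.68, 5.4 and 4.49 CPM in the 96 h libraries and 195, 150 and 151 CPM in the 120 h libraries (log2 fold change 4.90 ± 0.23, adjusted p = 3.56e-06). *Eip78C* (chromosome 3L, 21226609 to 21266503), an early nuclear receptor, was at 6.38, 5.86 and 7.58 CPM in the 96 h libraries and 177, 153 and 165 CPM in the 120 h libraries (log2 fold change 4.64 ± 0.17, adjusted p = 1.63e-06). The late level of each of these 3 genes was at least 10 times its mid level. The libraries of the stages did not overlap, which held for all 1491 called genes and for 5720 of the 10060 tested genes (56.9%).

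Other factors of the cascade rose as well, most of them from higher starting levels. *Eip75B*, a nuclear receptor that binds heme, was at 52.9, 43.9 and 47.3 CPM in the 96 h libraries and 316, 271 and 283 CPM in the 120 h libraries (log2 fold change 2.60 ± 0.14, adjusted p = 5.21e-06). *br*, which encodes the Broad zinc finger factors, rose from 456 ± 105 to 1824 ± 491 CPM (SD, n = 3; log2 fold change 2.0 ± 0.30, adjusted p = 0.0014). *Eip93F*, or E93, a factor of the later metamorphic response, was at 0.215, 0.287 and 0.379 CPM in the 96 h libraries and 33.8, 33.4 and 18.5 CPM in the 120 h libraries (log2 fold change 6.59 ± 0.69, adjusted p = 2.04e-04). *Eip74EF*, an Ets factor, rose from 44.2 ± 7.97 to 129 ± 23.1 CPM (log2 fold change 1.54 ± 0.25, adjusted p = 0.00219), a call that was lost without mid replicate 2, mid replicate 3 or late replicate 1 (highest adjusted p = 0.0136).

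*Hr39*, a nuclear receptor of the Ftz-F1 family, rose from 77.6 ± 11.8 to 180 ± 20.6 CPM (log2 fold change 1.22 ± 0.23, adjusted p = 0.00475) and lost the call without mid replicate 2, mid replicate 3, late replicate 1, late replicate 2 or late replicate 3 (highest adjusted p = 0.0239). *Kr-h1*, a zinc finger factor of the juvenile hormone response, rose from 93.1 ± 16.7 to 229 ± 51.7 CPM (log2 fold change 1.3 ± 0.25, adjusted p = 0.00541) and lost it without mid replicate 2, mid replicate 3, late replicate 1 or late replicate 3 (highest adjusted p = 0.0259). *Blimp-1*, a repressor that times the prepupal peak of *ftz-f1*, had no counts in the mid libraries and 0.869, 1.15 and 1.26 CPM in the late libraries. Its late mean was at least 21.5-fold above 0.0508 CPM, the level of 3 counts over the mid libraries together (adjusted p = 0.00566), a call lost without mid replicate 1, mid replicate 2, mid replicate 3, late replicate 1, late replicate 2 or late replicate 3 (highest adjusted p = 0.037). *Blimp-1* had no counts in the sorted cells of 96 and 120 h.

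The receptor itself was not among the called genes. *EcR* was at 102, 62.3 and 82.8 CPM in the 96 h libraries and 52.5, 49.8 and 35 CPM in the 120 h libraries (log2 fold change -0.85 ± 0.23, adjusted p = 0.0227), lower in all 3 late libraries. Its partner *usp* was at 53.3, 47.4 and 47.3 CPM in the 96 h libraries and 40.7, 44.4 and 49 CPM in the 120 h libraries (log2 fold change -0.14 ± 0.13, adjusted p = 0.408), and the stages overlapped. *ftz-f1*, which is active after the ecdysone peak, was at 96.9, 65.4 and 71.8 CPM in the 96 h libraries and 58.9, 74.7 and 44.8 CPM in the 120 h libraries (log2 fold change -0.39 ± 0.23, adjusted p = 0.216). Other uncalled members included the coactivator *tai* (110 to 121 CPM), the zinc finger gene *crol* (267 to 455 CPM, adjusted p = 0.0208) and the juvenile hormone receptors *Met* (20.5 to 19.5 CPM) and *gce* (5.57 to 3.05 CPM). DESeq2 called *crol*. The number of called members ranged between 6 (without mid replicate 2) and 12 (without early replicate 3) when 1 library was left out.

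At 72 h, *Hr3*, *Hr4* and *Eip78C* had means of 2.67, 15.4 and 20 CPM, above those at 96 h. The drop from 72 to 96 h was itself called for the 3 genes (log2 fold changes -2.60, -1.48 and -1.60, adjusted p = 0.00768, 0.00768 and 0.00282). Since that comparison uses the same 96 h libraries, the 2 changes are not independent. *br* had a mean of 312 CPM at 72 h and *Eip75B* 60.6 CPM, and neither was called from 72 to 96 h (adjusted p = 0.304 and 0.199).

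**Figure D3:**
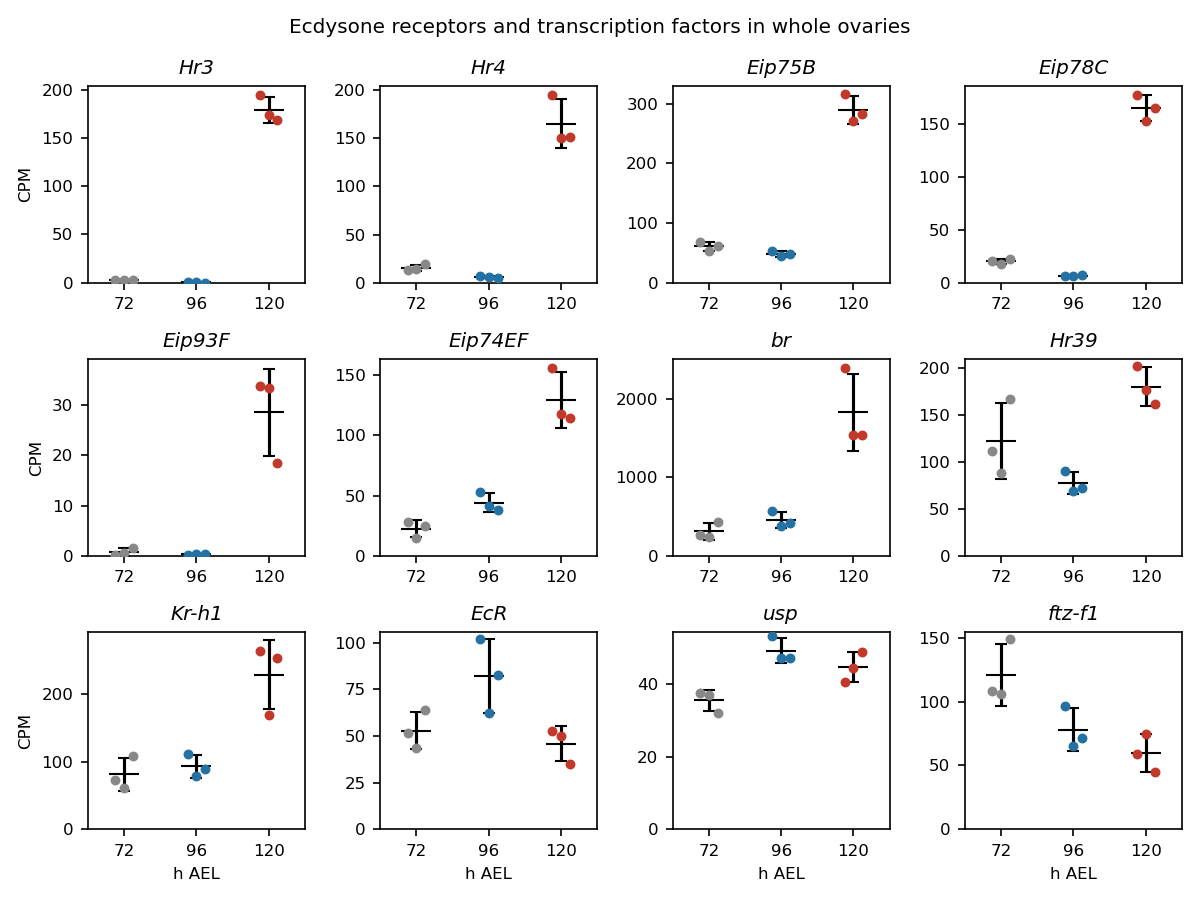
CPM of 12 genes for ecdysone receptors and transcription factors in each of the 9 whole ovary libraries, by hours AEL. Points are libraries, horizontal bars are means and error bars are SD (n = 3). The upper rows show genes that were low at 96 h and high at 120 h, such as *Hr3* (means 0.419 to 178 CPM), and the last row shows *EcR*, *usp* and *ftz-f1*, which were not called.

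Genes downstream of the hormone changed in both directions. Of 27 tested ecdysone inducible genes, 9 rose (33.3%) and 3 fell (11.1%), against 5.76% and 9.07% of all tested genes. *ImpE1* and *ImpE3*, first found as ecdysone inducible genes of imaginal discs, rose from 10.3 ± 5.02 to 89.7 ± 10.9 CPM (log2 fold change 3.12 ± 0.47, adjusted p = 0.00145) and from 1.73 ± 0.346 to 13.6 ± 2.81 CPM (log2 fold change 2.97 ± 0.29, adjusted p = 1.43e-04). The late salivary gland genes *Eig71Ea*, *Eig71Ec* and *Eig71Ed* had no counts in the mid libraries and means of 4.05, 12.5 and 4.43 CPM at 120 h, at least 79.8-, 246- and 87.3-fold above the same floor. Their calls (adjusted p = 0.00317, 0.00424 and 0.00425) were lost without late replicate 2 and, for 1 or more of them, without each of the other 5 libraries of these stages. These 3 genes had no counts in sorted somatic cells at 96 and 120 h. The higher calls of the inducible list ranged between 5 (without late replicate 1) and 12 (without early replicate 3). *Cyp18a1*, the enzyme that inactivates ecdysone, fell from 11.9 ± 1.79 to 1.4 ± 0.178 CPM (log2 fold change -3.09 ± 0.25, adjusted p = 5.05e-05).

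*Fbp1*, a fat body protein under ecdysone control, was at 253, 36.6 and 1054 CPM in the 96 h libraries and 5613, 7647 and 3783 CPM in the 120 h libraries (log2 fold change 3.67 ± 0.95, adjusted p = 0.0189), and was not called by edgeR, though DESeq2 called it. The stages did not overlap, as for 56.9% of all tested genes, and the mid libraries differed by over 25-fold among themselves. Of 17 tested genes for the synthesis of ecdysteroids and the turnover of juvenile hormone, 2 rose (11.8%) and 2 fell (11.8%). Over all tested genes the shares were 5.76% and 9.07%. *Pvr*, a receptor tyrosine kinase that also acts in the prothoracic gland, rose from 54.5 ± 7.14 to 192 ± 14.5 CPM (log2 fold change 1.82 ± 0.15, adjusted p = 5.82e-05), and *Npc1a*, a sterol transporter, rose from 84.2 ± 7.04 to 146 ± 6.89 CPM but lost the call without mid replicate 2, mid replicate 3, late replicate 1, late replicate 2 or late replicate 3 (highest adjusted p = 0.019). *Jheh3*, a juvenile hormone epoxide hydrolase, fell from 11.8 ± 5.57 to 0.877 ± 0.148 CPM (log2 fold change -3.73 ± 0.51, adjusted p = 8.33e-04), and *shd*, the enzyme that makes active 20-hydroxyecdysone, fell from 4.25 ± 3 to 0.282 ± 0.169 CPM and lost the call without late replicate 2 or late replicate 3 (highest adjusted p = 0.0216) and with limma voom. The Halloween genes *nvd*, *spo*, *sro* and *sad* had means of 0.823 to 4.08 CPM at both stages and were not called.

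*chinmo* (chromosome 2L, 1651258 to 1704682), a BTB zinc finger gene that marks early temporal states in neural stem cells, was at 232, 137 and 185 CPM in the 96 h libraries and 48.2, 37.9 and 32.3 CPM in the 120 h libraries (log2 fold change -2.23 ± 0.29, adjusted p = 7.33e-04). *Syp*, an RNA-binding protein that restrains *chinmo* in those cells, was at 514, 304 and 399 CPM in the 96 h libraries and 2138, 1634 and 1436 CPM in the 120 h libraries (log2 fold change 2.10 ± 0.28, adjusted p = 7.44e-04) and was among the 5 called genes with the largest rise in mean CPM. The precursor of the let-7 complex microRNAs, *lncRNA:let7C*, was at 0, 0 and 0.0541 CPM in the 96 h libraries and 2.37, 2.82 and 2.56 CPM in the 120 h libraries (log2 fold change 6.82 ± 0.86, adjusted p = 0.00139), a call lost without late replicate 2 (highest adjusted p = 0.0108). *fru*, which encodes BTB factors of sexual identity in neurons, was at 358, 291 and 318 CPM in the 96 h libraries and 21.6, 20.5 and 17.6 CPM in the 120 h libraries (log2 fold change -4.02 ± 0.20, adjusted p = 3.56e-06), so that every late library lay at under 25 CPM and every mid library over 250 CPM.

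Among 18 tested terminal filament and cap cell markers, 3 rose and 1 fell, against 5.76% and 9.07% of all tested genes. The higher calls were 8 with DESeq2. When 1 library was left out they never fell below 3 and reached 8 (without early replicate 3). *Lmx1a* (chromosome 3L, 12329232 to 12335901), a LIM homeodomain factor of terminal filaments, was at 205, 134 and 199 CPM in the 96 h libraries and 481, 596 and 705 CPM in the 120 h libraries (log2 fold change 1.72 ± 0.21, adjusted p = 4.28e-04). *Dh44-R2*, a neuropeptide receptor, rose from 6.79 ± 1.02 to 49.8 ± 4.23 CPM (log2 fold change 2.87 ± 0.24, adjusted p = 6.16e-05), *Wnt4* rose from 253 ± 29.9 to 481 ± 20.9 CPM (log2 fold change 0.93 ± 0.14, adjusted p = 0.00138), and the adhesion gene *Con* fell from 21.1 ± 1.64 to 4.4 ± 1.26 CPM (log2 fold change -2.28 ± 0.26, adjusted p = 3.08e-04). *bab2*, needed for terminal filament formation, was at 590, 395 and 533 CPM in the 96 h libraries and 979, 770 and 675 CPM in the 120 h libraries (log2 fold change 0.68 ± 0.26, adjusted p = 0.0752), and *bab1* went from 52.5 to 66.9 CPM (adjusted p = 0.301). The homeodomain genes *en* and *inv* went from 3.04 to 8.19 CPM and from 12 to 21 CPM (adjusted p = 0.183 and 0.0274), and the ligand *hh* from 44.6 to 42.8 CPM (adjusted p = 0.835). These 5 genes were not called, but *inv* was called higher by DESeq2, and *en* and *inv* were with the 6 libraries of 96 and 120 h alone.

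Of 20 tested markers of sheath, swarm and intermingled cells, 10 rose and 3 fell, with a median log2 fold change of 1.0 against -0.11 over all genes. *Six4* (chromosome 3L, 20788886 to 20792777), a homeodomain factor of the embryonic gonad, was at 0.129, 0.0575 and 0.108 CPM in the 96 h libraries and 16, 13.7 and 16.7 CPM in the 120 h libraries (log2 fold change 7.18 ± 0.48, adjusted p = 1.68e-05). *Sox100B*, the fly Sox9 homolog, was at 2.63, 7.07 and 3.41 CPM in the 96 h libraries and 63, 79.9 and 81.4 CPM in the 120 h libraries (log2 fold change 4.11 ± 0.35, adjusted p = 6.62e-05), and *eya*, a transcriptional cofactor and phosphatase, rose from 5.06 ± 0.24 to 24.5 ± 4.68 CPM (log2 fold change 2.27 ± 0.23, adjusted p = 1.73e-04). The homeodomain gene *ct* rose from 17.1 ± 6.86 to 133 ± 25.6 CPM (log2 fold change 2.96 ± 0.29, adjusted p = 1.47e-04) and *zfh1* rose from 182 ± 44.3 to 528 ± 94.2 CPM (log2 fold change 1.54 ± 0.23, adjusted p = 0.00143). *esg*, a Snail family repressor, fell from 51.9 ± 3.11 to 3.34 ± 0.53 CPM (log2 fold change -3.96 ± 0.31, adjusted p = 4.44e-05). *tj*, the marker of intermingled cells, was at 400, 340 and 363 CPM in the 96 h libraries and 239, 256 and 288 CPM in the 120 h libraries (log2 fold change -0.49 ± 0.15, adjusted p = 0.0369) and was not called.

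The wider list of somatic gonad transcription factors had 11 members higher (34.4%) and 3 lower (9.38%) of 32 tested, and shares several of these genes. The lower share was near the 9.07% of all tested genes. Besides *esg* and *chinmo*, *ap* fell from 10.2 ± 6.71 to 1.6 ± 0.154 CPM (log2 fold change -2.66 ± 0.47, adjusted p = 0.00345), a call lost without late replicate 1, late replicate 2 or late replicate 3 (highest adjusted p = 0.0212) and with limma voom. *dsx*, the sex determination factor, went from 310 to 484 CPM (adjusted p = 0.0281). The Hox gene *abd-A* went from 582 to 1065 CPM (adjusted p = 0.0171), and none of 6 tested Hox genes and cofactors was called by edgeR or limma voom, while 3 had an unadjusted p under 0.05 and DESeq2 called 2, *abd-A* among them. DESeq2 also called *dsx*. The higher calls of the factor list ranged between 8 (without mid replicate 3) and 17 (without early replicate 3) when 1 library was left out.

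Genes of the FGF pathway rose as well, 4 of which are also on the sheath list. Of 10 tested members, 5 were higher and none lower. *stumps* (chromosome 3R, 14577217 to 14608079), the adaptor that FGF receptors need for signaling, was at 21.4, 8.74 and 17.9 CPM in the 96 h libraries and 633, 616 and 661 CPM in the 120 h libraries (log2 fold change 5.31 ± 0.34, adjusted p = 1.57e-05). *ths*, an FGF8-like ligand, was at 22.1, 4.71 and 13.7 CPM in the 96 h libraries and 396, 309 and 260 CPM in the 120 h libraries (log2 fold change 4.56 ± 0.56, adjusted p = 5.02e-04). Both already differed among the mid libraries, with mid replicate 2 lowest, and the late libraries lay over 10-fold above the highest of them. *htl*, the receptor, rose less, from 57.9 ± 10.5 to 110 ± 10.9 CPM (log2 fold change 0.92 ± 0.15, adjusted p = 0.00238), and lost the call without mid replicate 3, late replicate 1 or late replicate 2 (highest adjusted p = 0.0135). *bnl*, the ligand of the tracheal receptor, rose from 10 ± 0.34 to 21.5 ± 3.35 CPM (log2 fold change 1.09 ± 0.17, adjusted p = 0.00187) and lost it without mid replicate 3, late replicate 1 or late replicate 3 (highest adjusted p = 0.0124). *sty*, the feedback inhibitor Sprouty, rose from 89.9 ± 10.9 to 230 ± 34 CPM (log2 fold change 1.35 ± 0.26, adjusted p = 0.00466) and lost it without mid replicate 1, mid replicate 2, mid replicate 3, late replicate 1 or late replicate 2 (highest adjusted p = 0.0216). The calls ranged between 2 (without mid replicate 3) and 7 (without early replicate 3).

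Wnt pathway genes moved in both directions. Of 32 tested pathway genes, 5 rose (15.6%) and 5 fell (15.6%), against 5.76% and 9.07% of all tested genes. The 2 neighboring ligand genes *wg* (chromosome 2L, 7307159 to 7316265) and *Wnt6* (chromosome 2L, 7333714 to 7352542) were nearly lost. *wg* was at 13.5, 13.3 and 7.31 CPM in the 96 h libraries and 0.079, 0 and 0.0383 CPM in the 120 h libraries (log2 fold change -8.20 ± 0.62, adjusted p = 4.03e-05), and *Wnt6* was at 29.5, 33.3 and 22.2 CPM in the 96 h libraries and 0.237, 0.0881 and 0.153 CPM in the 120 h libraries (log2 fold change -7.53 ± 0.29, adjusted p = 1.74e-06). *Wnt2* fell from 82 ± 10.3 to 11.3 ± 0.0924 CPM (log2 fold change -2.86 ± 0.13, adjusted p = 2.84e-06). *Notum* and *fz3*, which are induced by Wnt signaling in other fly tissues and encode a secreted Wnt inhibitor and a Frizzled protein, fell from 10.3 ± 0.111 to 0.737 ± 0.388 CPM (log2 fold change -3.87 ± 0.42, adjusted p = 2.65e-04) and from 12.2 ± 0.822 to 2.24 ± 0.158 CPM (log2 fold change -2.44 ± 0.18, adjusted p = 2.77e-05). All 3 late libraries were below all 3 mid libraries for each of these 5 genes, as for every called gene that fell.

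The called members that rose were *Wnt4* and 4 receptor genes. *fz2*, a Frizzled receptor, rose from 316 ± 81.1 to 889 ± 69 CPM (log2 fold change 1.49 ± 0.20, adjusted p = 7.84e-04) and *arr*, the LRP co-receptor, rose from 101 ± 21 to 379 ± 72.9 CPM (log2 fold change 1.91 ± 0.26, adjusted p = 8.58e-04). The Ryk family receptors *drl* and *dnt* rose from 18 ± 1.54 to 120 ± 9.26 CPM (log2 fold change 2.74 ± 0.15, adjusted p = 5.21e-06) and from 40.5 ± 7.41 to 102 ± 3.8 CPM (log2 fold change 1.33 ± 0.16, adjusted p = 3.49e-04). The intracellular core was not called: *arm*, the fly beta-catenin, went from 1161 to 1411 CPM (adjusted p = 0.157), *dsh* from 58.6 to 63.4 CPM (adjusted p = 0.552) and *pan*, the TCF factor, from 62.9 to 133 CPM (adjusted p = 0.0265). DESeq2 called *arm* and *pan*. The 10 calls held in all 9 fits that left out a library, and without early replicate 3 the number of higher calls was 13.

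In the Hippo pathway, 6 of 31 tested members rose and none fell. *d* (chromosome 2L, 8466817 to 8488671), the atypical myosin Dachs, was at 2.24, 0.805 and 2.49 CPM in the 96 h libraries and 172, 199 and 201 CPM in the 120 h libraries (log2 fold change 6.67 ± 0.35, adjusted p = 4.41e-06). The cadherin *ds*, Dachsous, rose from 58 ± 22.6 to 400 ± 137 CPM (log2 fold change 2.78 ± 0.38, adjusted p = 8.89e-04), the adhesion protein gene *ed* rose from 50.6 ± 9.27 to 435 ± 46.1 CPM (log2 fold change 3.10 ± 0.21, adjusted p = 1.83e-05), and *Diap1*, a caspase inhibitor and Hippo target, rose from 98.7 ± 9.22 to 257 ± 52.8 CPM (log2 fold change 1.38 ± 0.17, adjusted p = 5.59e-04). Notch pathway genes had 7 of 30 higher and none lower, with *lqf*, the fly Epsin, rising from 76.3 ± 6.29 to 181 ± 1.57 CPM (log2 fold change 1.25 ± 0.11, adjusted p = 7.33e-05). *N* itself went from 379 to 706 CPM (adjusted p = 0.0169) and *Dl* from 77.8 to 69.1 CPM (adjusted p = 0.705), of which DESeq2 called *N*.

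For BMP and Activin genes the counts were 7 higher and 1 lower of 29. The type I receptor gene *tkv* rose from 138 ± 33.6 to 550 ± 35.4 CPM (log2 fold change 1.99 ± 0.20, adjusted p = 1.52e-04), the secreted antagonist gene *sog* rose from 3.5 ± 0.466 to 28.4 ± 2.27 CPM (log2 fold change 3.02 ± 0.31, adjusted p = 1.85e-04), and *magu*, a secreted modulator, fell from 85.2 ± 9.61 to 25.1 ± 1.73 CPM (log2 fold change -1.77 ± 0.14, adjusted p = 4.79e-05). The ligand *dpp* went from 11.8 to 7.25 CPM and was not called (adjusted p = 0.137). Of 27 EGFR and Ras genes, 7 rose, among them the ligand *spi* (from 117 ± 11.2 to 205 ± 13.2 CPM; log2 fold change 0.81 ± 0.12, adjusted p = 0.00121) and *edl*, an Ets antagonist (from 25.6 ± 3.43 to 145 ± 21.4 CPM; log2 fold change 2.51 ± 0.24, adjusted p = 1.23e-04). Of 18 Hedgehog genes, 4 rose, among them the co-receptor *boi* (from 83.4 ± 29.4 to 343 ± 28.5 CPM; log2 fold change 2.04 ± 0.27, adjusted p = 7.97e-04), while *ptc* and *ci* were not called (adjusted p = 0.0217 and 0.944), though DESeq2 called *ptc*. In insulin and TOR signaling, 5 of 31 fell and 1 rose. *foxo* fell from 78.4 ± 2.44 to 40 ± 5.92 CPM (log2 fold change -0.97 ± 0.13, adjusted p = 8.85e-04), and *Sdr*, a secreted decoy of the insulin receptor, fell from 31.8 ± 6.29 to 9.66 ± 1.28 CPM (log2 fold change -1.72 ± 0.19, adjusted p = 2.50e-04). The lower calls of this list ranged between 2 (without mid replicate 3) and 5, the count with all libraries. The higher ones ranged between 0 (without mid replicate 2) and 5 (without early replicate 3). When 1 library was left out, the higher calls ranged between 4 (without mid replicate 1) and 14 (without early replicate 3) for Hippo, between 2 (without mid replicate 2) and 11 (without early replicate 3) for Notch, between 4 (without mid replicate 3) and 14 (without early replicate 3) for BMP and Activin, between 3 (without mid replicate 1) and 12 (without early replicate 3) for EGFR and Ras, and between 1 (without mid replicate 2) and 10 (without early replicate 3) for Hedgehog genes.

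**Figure D4:**
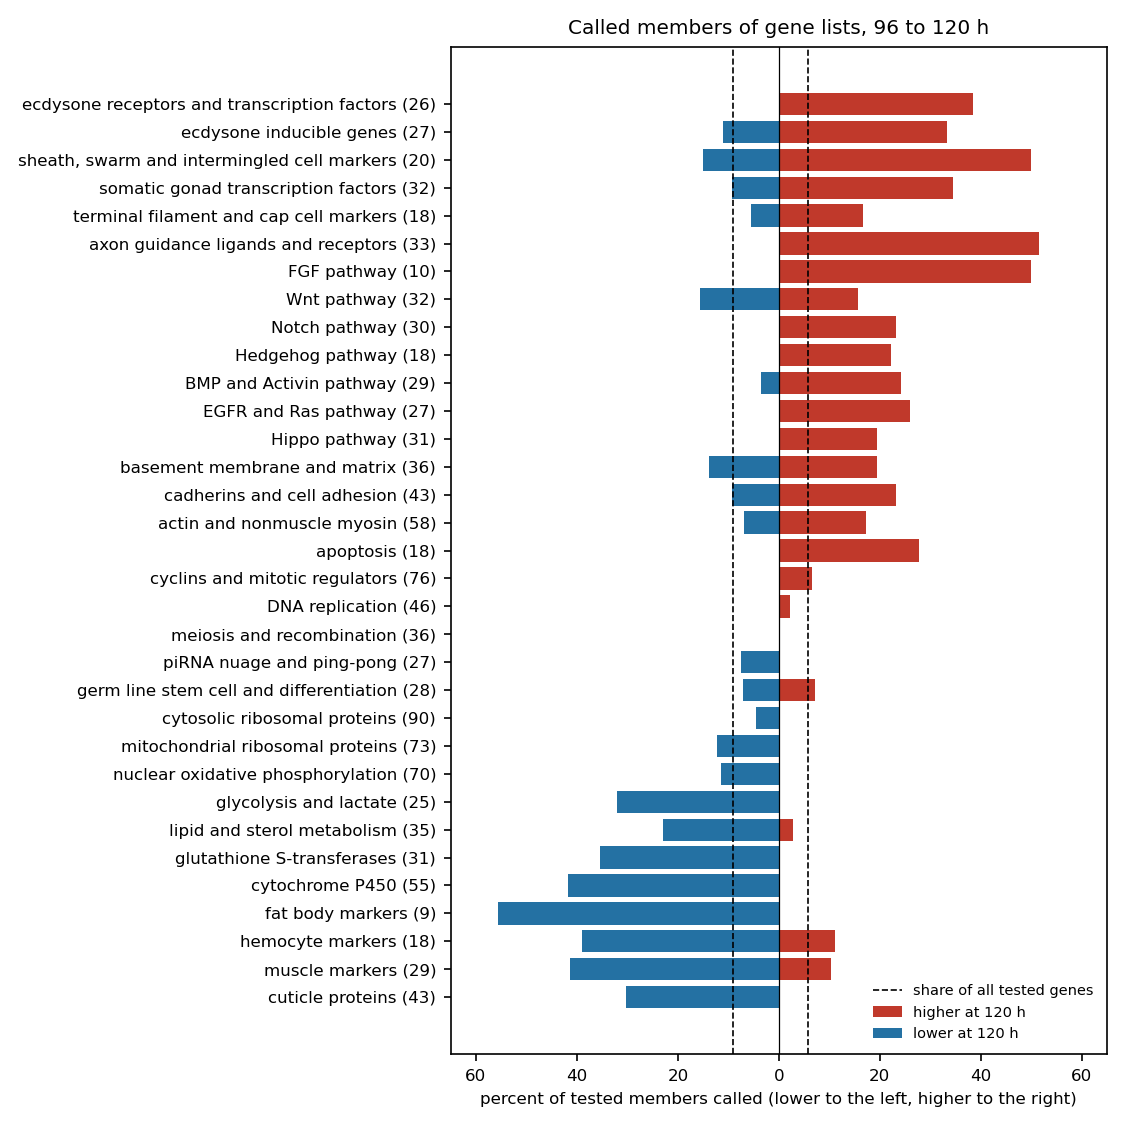
Percent of the tested members of 33 gene lists that were called higher (red, to the right) or lower (blue, to the left) at 120 h, with the number tested in parentheses. Dashed lines mark the shares among all tested genes, 5.76% higher and 9.07% lower. Ecdysone, sheath, guidance and signaling lists extend to the right of the line, and metabolic lists and those of fat body, muscle, hemocytes and cuticle extend to the left.

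Genes for cell guidance, adhesion and the matrix around cells included some of the steepest rises. Of 33 tested axon guidance ligands and receptors, 17 rose and none fell, and the median log2 fold change was 0.99. *fra*, the Netrin receptor Frazzled, was at 151, 73.7 and 107 CPM in the 96 h libraries and 824, 637 and 575 CPM in the 120 h libraries (log2 fold change 2.62 ± 0.30, adjusted p = 3.08e-04). *beat-IIa* and *beat-IIb*, which encode Beat family immunoglobulin proteins, went from under 2 CPM to 26.1 ± 3.23 and 29.9 ± 5.29 CPM (log2 fold change 4.74 ± 0.45, adjusted p = 1.33e-04 and log2 fold change 6.94 ± 0.59, adjusted p = 6.82e-05). *NetA* went from 205 to 198 CPM (adjusted p = 0.852), and *sli*, the ligand Slit, from 233 to 465 CPM (adjusted p = 0.0162), of which DESeq2 called *sli*. The 17 calls varied between 6 (without late replicate 1) and 26 (without early replicate 3) when 1 library was left out.

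In basement membrane and matrix, 7 of 36 tested genes rose (19.4%) and 5 fell (13.9%), against 5.76% and 9.07% of all tested genes. *wb* (chromosome 2L, 14263027 to 14328262), a laminin alpha chain, was at 8.32, 4.71 and 6.66 CPM in the 96 h libraries and 386, 344 and 262 CPM in the 120 h libraries (log2 fold change 5.65 ± 0.27, adjusted p = 3.56e-06). *Mmp2*, a membrane-bound matrix metalloproteinase, was at 9.56, 5.29 and 10.3 CPM in the 96 h libraries and 328, 325 and 305 CPM in the 120 h libraries (log2 fold change 5.25 ± 0.25, adjusted p = 3.56e-06). *Dg*, the laminin receptor Dystroglycan, rose from 396 ± 57 to 1349 ± 248 CPM (log2 fold change 1.77 ± 0.23, adjusted p = 7.07e-04). The laminin genes *LanA* and *LanB1* and the collagen IV genes *Col4a1* and *vkg* were not called (adjusted p = 0.0164, 0.0123, 0.117 and 0.413). *LanA* went from 2428 to 4432 CPM, *LanB1* from 1904 to 3306 CPM, *Col4a1* from 2965 to 1442 CPM and *vkg* from 1309 to 921 CPM. DESeq2 and the 6 libraries alone called both laminin genes higher, and limma voom, RLE factors and unscaled totals called *LanB1*. The higher calls ranged between 4 (without mid replicate 3) and 13 (without early replicate 3). *prc*, a collagen-like protein of the heart matrix, was at 203, 924 and 257 CPM in the 96 h libraries and 0.869, 0.573 and 0.689 CPM in the 120 h libraries (log2 fold change -9.37 ± 0.78, adjusted p = 6.57e-05). *Tig*, an integrin ligand made by hemocytes and fat body, fell from 669 ± 423 to 10.5 ± 1.85 CPM (log2 fold change -6.0 ± 0.54, adjusted p = 8.88e-05). In sorted somatic cells of 96 and 120 h, *prc* had means of 0.0106 and 0.0868 CPM and *Tig* 0.808 and 0.579 CPM.

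Of 43 tested cadherin and adhesion genes, 10 rose (23.3%) and 4 fell (9.3%), against 5.76% and 9.07% of all tested genes. The immunoglobulin family genes *hbs* and *tutl* rose from 5.65 ± 1.76 to 226 ± 9.65 CPM (log2 fold change 5.32 ± 0.35, adjusted p = 1.74e-05) and from 9.12 ± 3.44 to 247 ± 35.1 CPM (log2 fold change 4.75 ± 0.40, adjusted p = 6.59e-05). *Nrt*, Neurotactin, and *Ama*, its secreted partner Amalgam, rose together, from 320 ± 99 to 1439 ± 93.6 CPM (log2 fold change 2.17 ± 0.24, adjusted p = 2.79e-04) and from 194 ± 71.3 to 938 ± 147 CPM (log2 fold change 2.27 ± 0.30, adjusted p = 7.48e-04). The adhesion gene *Fas2* went from 2922 to 2012 CPM (adjusted p = 0.0672). The higher adhesion calls ranged between 8 (without mid replicate 3) and 15 (without early replicate 3) and the lower ones between 1 (without early replicate 2) and 5 (without early replicate 3). Of 58 actin and nonmuscle myosin genes, 10 rose (17.2%) and 4 fell (6.9%), the latter below the 9.07% of all tested genes. The higher calls ranged between 5 (without mid replicate 3) and 19 (without early replicate 3). *sn*, the fly fascin, was at 131, 98.6 and 126 CPM in the 96 h libraries and 917, 796 and 792 CPM in the 120 h libraries (log2 fold change 2.82 ± 0.15, adjusted p = 4.82e-06), and *Fim*, fimbrin, rose from 172 ± 20.9 to 644 ± 71.2 CPM (log2 fold change 1.91 ± 0.17, adjusted p = 7.96e-05). The formin gene *DAAM* rose from 43.8 ± 10.3 to 161 ± 12.2 CPM (log2 fold change 1.88 ± 0.19, adjusted p = 1.74e-04). The severing protein gene *Gel*, gelsolin, was at 774, 879 and 863 CPM in the 96 h libraries and 105, 88.7 and 76.4 CPM in the 120 h libraries (log2 fold change -3.22 ± 0.17, adjusted p = 4.41e-06). *Act5C*, the main cytoplasmic actin, went from 5643 to 7422 CPM (adjusted p = 0.107) and was called by DESeq2 only. *fax*, a neural membrane-associated protein, rose from 1318 ± 243 to 4231 ± 280 CPM (log2 fold change 1.68 ± 0.22, adjusted p = 6.23e-04) and *Jupiter*, a microtubule protein, rose from 452 ± 60.6 to 1391 ± 84 CPM (log2 fold change 1.62 ± 0.16, adjusted p = 1.38e-04).

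Genes outside these lists also rose from near 0. *yellow-c*, of the Yellow family, was at 0, 0.345 and 0.487 CPM in the 96 h libraries and 93.5, 111 and 89.6 CPM in the 120 h libraries (log2 fold change 8.53 ± 0.75, adjusted p = 7.98e-05). *obst-A*, a chitin-binding protein, was at 2.76, 2.76 and 1.41 CPM in the 96 h libraries and 302, 314 and 295 CPM in the 120 h libraries (log2 fold change 7.03 ± 0.88, adjusted p = 5.36e-04), and *santa-maria*, a scavenger receptor for carotenoids, rose from 0.105 ± 0.116 to 35.2 ± 13.8 CPM (log2 fold change 8.35 ± 0.89, adjusted p = 2.30e-04). Uncharacterized genes that rose from under 1 CPM were *CG46321* (chromosome 2R, 10205454 to 10227957; from 0.152 ± 0.167 to 50.6 ± 12.6 CPM), *CG6739* (chromosome 2L, 7608389 to 7616533; from 0.115 ± 0.199 to 46.2 ± 8.82 CPM), *CG9812* (chromosome 2R, 23412320 to 23419684; from 0.109 ± 0.105 to 31.3 ± 10.7 CPM) and *CG4950* (chromosome 3L, 16265797 to 16268156; from 0.0335 ± 0.0299 to 13.9 ± 1.82 CPM). The log2 fold changes of these 4 genes were 8.20, 8.39, 8.17 and 8.46. *CG46321* lies within the span of *Hr3*, and whether the counting used strand is not given in the sources used here, so that reads of these overlapping genes may be shared. The noncoding RNA gene *CR43482* (chromosome 3L, 9386112 to 9386463) had no counts at 96 h and 129, 121 and 51 CPM at 120 h, at least 1977-fold above the floor of 3 counts over the mid libraries by its late mean (adjusted p = 0.00603). Its call was lost without mid replicate 1, mid replicate 2, mid replicate 3, late replicate 1, late replicate 2 or late replicate 3 (highest adjusted p = 0.0253). Of 24 tested neuropeptide and hormone receptors, 7 rose and 2 fell. When 1 library was left out, the higher calls ranged from 3 (without mid replicate 3) to 7 and the lower calls from 2 to 4 (without early replicate 3). *rk*, the bursicon receptor, was at 0.689, 0.46 and 0.758 CPM in the 96 h libraries and 43.9, 29.4 and 28.5 CPM in the 120 h libraries (log2 fold change 5.71 ± 0.37, adjusted p = 1.51e-05). *AkhR*, the receptor of adipokinetic hormone, fell from 31.8 ± 21.9 to 1.56 ± 0.212 CPM (log2 fold change -4.35 ± 0.51, adjusted p = 3.54e-04).

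Cell cycle and germ line lists were set against the shares over all tested genes, 5.76% higher and 9.07% lower. A single gene of 46 DNA replication genes (2.17%) and 5 of 76 cyclin and mitotic genes (6.58%) were called, all higher, with medians of 0.01 and 0.26 against -0.11 over all genes. When 1 library was left out, the higher calls ranged between 0 (without mid replicate 2) and 23 (without early replicate 3) for the mitotic and between 0 (without early replicate 2) and 7 (without early replicate 3) for the replication genes, and up to 3 replication genes were called lower. *CycB* rose from 325 ± 47.3 to 604 ± 21.7 CPM (log2 fold change 0.90 ± 0.17, adjusted p = 0.00444) and lost the call without mid replicate 2, mid replicate 3, late replicate 1, late replicate 2 or late replicate 3 (highest adjusted p = 0.0208). Apoptosis genes had 5 of 18 higher, between 2 (without mid replicate 2) and 6 (without early replicate 3) when 1 library was left out, among them the initiator caspase gene *Dronc* (from 21.9 ± 0.795 to 55.3 ± 2.48 CPM; log2 fold change 1.33 ± 0.11, adjusted p = 6.16e-05), its inhibitor *Diap1*, and the inducer *hid* (from 29.2 ± 7.62 to 64.4 ± 9.63 CPM; log2 fold change 1.14 ± 0.24, adjusted p = 0.00727), whose call was lost without early replicate 1, mid replicate 1, mid replicate 2, late replicate 1, late replicate 2 or late replicate 3 (highest adjusted p = 0.0325).

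Of the germ line stem cell and differentiation genes, 2 of 28 tested rose (7.14%) and 2 fell (7.14%). These shares were near those over all tested genes, 5.76% and 9.07%. The higher calls ranged between 1 (without early replicate 2) and 6 (without early replicate 3). The lower ones ranged between 1 (without late replicate 1) and 2, the count with all libraries. *bam* (chromosome 3R, 25243039 to 25245109), the switch gene of germ cell differentiation, was at 1.55, 1.03 and 3.46 CPM in the 96 h libraries and 29.4, 26.3 and 22.3 CPM in the 120 h libraries (log2 fold change 3.69 ± 0.44, adjusted p = 4.28e-04). In the sorted germ cells its mean was 40 and 107 CPM at 96 and 120 h (log2 fold change 1.42, adjusted p = 0.408), and edgeR called 0 of 10340 genes (0%) between these stages in germ cells, where 1203 had an unadjusted p under 0.05. Germ libraries varied more, with a common coefficient of variation of 0.842 against 0.307 in whole ovaries. Germ mid replicate 1 had only 9680615 counts and a fat body marker sum of 3695 CPM. The authors did call genes between these stages in germ cells with DESeq2. The lack of calls here therefore does not show that germ cells were unchanged. *pgc*, a repressor of transcription in early germ cells, fell from 5.57 ± 1.96 to 0.233 ± 0.0778 CPM (log2 fold change -4.56 ± 0.46, adjusted p = 1.65e-04). *nos* and *vas* went from 44.4 to 39.5 CPM and from 216 to 168 CPM (adjusted p = 0.579 and 0.0503). None of 36 tested meiosis and recombination genes was called by edgeR or limma voom, 6 had an unadjusted p under 0.05, and DESeq2 called 1. Among 27 piRNA nuage and ping-pong genes, *mael* and *papi* fell, from 68 ± 3.73 to 28.5 ± 4.82 CPM (log2 fold change -1.25 ± 0.14, adjusted p = 3.05e-04) and from 141 ± 11.9 to 76.5 ± 4.52 CPM (log2 fold change -0.89 ± 0.12, adjusted p = 8.96e-04). The call of *papi* was lost when library totals were not scaled. These 2 falls were 7.41% of the list, where 9.07% of all tested genes fell.

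Many metabolic genes fell. Of 55 tested cytochrome P450 genes, 23 fell and none rose, with a median log2 fold change of -1.63. *Cyp4p3* was at 12.8, 45.3 and 23 CPM in the 96 h libraries and 0.158, 0 and 0.0383 CPM in the 120 h libraries (log2 fold change -8.92 ± 0.76, adjusted p = 7.14e-05), and *Cyp4s3* fell from 53.4 ± 42.5 to 0.174 ± 0.0555 CPM (log2 fold change -8.30 ± 0.74, adjusted p = 8.53e-05). Of 31 glutathione S-transferases, 11 fell, among them *GstD7* (from 100 ± 95.4 to 0.214 ± 0.157 CPM; log2 fold change -9.06 ± 1.04, adjusted p = 3.35e-04), and of 19 UDP-glycosyltransferases 9 fell and 1 rose, among them *Ugt302C1* (from 90.9 ± 32.2 to 3.99 ± 0.999 CPM; log2 fold change -4.49 ± 0.33, adjusted p = 3.70e-05). In these detoxification families, 10 of the 23 fallen P450 genes, 3 of the 11 transferases and 6 of the 9 glycosyltransferases had medians under 1 CPM in sorted somatic and germ cells. Among all tested members, 22 of 55 P450 genes, 7 of 31 transferases and 10 of 19 glycosyltransferases had such medians. The lower calls ranged between 6 (without mid replicate 2) and 14 (without early replicate 3) for the transferases and between 3 (without late replicate 2) and 9 (without early replicate 3) for the glycosyltransferases.

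In carbohydrate metabolism, 8 of 25 tested genes of glycolysis, trehalose and glycogen fell and none rose. *Gpo1*, the mitochondrial glycerol-3-phosphate dehydrogenase, was at 188, 664 and 288 CPM in the 96 h libraries and 8.77, 12.4 and 9.56 CPM in the 120 h libraries (log2 fold change -5.21 ± 0.54, adjusted p = 2.01e-04). *Tps1*, which makes trehalose, fell from 155 ± 90 to 3.63 ± 1.16 CPM (log2 fold change -5.40 ± 0.51, adjusted p = 1.29e-04), and *GlyP*, glycogen phosphorylase, fell from 212 ± 88.4 to 38.8 ± 5.02 CPM (log2 fold change -2.45 ± 0.32, adjusted p = 6.62e-04). The glycolytic enzymes *Gapdh2* and *Eno* were not called (1049 to 948 CPM and 945 to 758 CPM; adjusted p = 0.491 and 0.374). Of 35 lipid and sterol genes, 8 fell and 1 rose. *AcCoAS*, acetyl-CoA synthetase, fell from 225 ± 119 to 17.9 ± 3.26 CPM (log2 fold change -3.65 ± 0.46, adjusted p = 5.76e-04). *FASN1*, fatty acid synthase, fell from 2447 ± 1204 to 610 ± 81.2 CPM (log2 fold change -2.01 ± 0.36, adjusted p = 0.00373) and lost the call without late replicate 1, late replicate 2 or late replicate 3 (highest adjusted p = 0.0211). The lower calls ranged between 4 (without mid replicate 2) and 14 (without early replicate 3) for the carbohydrate and between 1 (without late replicate 2) and 10 (without early replicate 3) for the lipid genes.

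Lists of ribosomal and mitochondrial genes were shifted as a whole, with few single calls. Of 70 tested nuclear genes of oxidative phosphorylation, 69 had a negative log2 fold change, with a median of -1.2, and 8 were called lower. Of 73 mitochondrial ribosomal protein genes, 70 were negative (median -0.86) and 9 called lower, and of 90 cytosolic ribosomal protein genes 85 were negative (median -0.93) and 4 called lower. None was called higher by edgeR, and DESeq2 called 1 cytosolic ribosomal protein gene higher. These counts depended on single libraries. They were 58, 45 and 50 without early replicate 3. No ribosomal protein gene of either kind was called without mid replicate 2, mid replicate 3, late replicate 1 or late replicate 2, and at most 1 oxidative phosphorylation gene was. Without late replicate 3 the counts were 1, 3 and 1. Transcripts of the mitochondrial genome had a median of -0.42 and no call among 13 by edgeR, DESeq2 or limma voom, with 3 at an unadjusted p under 0.05. In sorted somatic cells, the medians of the 3 nuclear lists were -0.67, -0.67 and -0.44.

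The deepest falls were in genes that the sorted cells scarcely expressed. For each gene, the highest of its medians over the 3 libraries of somatic or germ cells at 96 or 120 h was taken as its sorted-cell level, on the scale of each tissue's own libraries. Of 438 tested genes with a sorted-cell level under 0.1 CPM, 142 fell and 12 rose, and their median log2 fold change was -3.95. Of 583 genes between 0.1 and 1 CPM, 107 fell and 18 rose. Of 6992 genes at 10 CPM or more, 485 fell and 505 rose, and their median was -0.04. Of the 391 genes that fell by over 8-fold, 230 had a sorted-cell level under 1 CPM. The same held for 30 of the 115 genes that rose by over 8-fold and for 1021 of all 10060 tested genes. Together the 230 genes that fell held 1.62% of the counts at 96 h and 0.0251% at 120 h. The part of nonovarian tissue in these falls was not tested.

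The fat body list shows the size of these falls. Of 9 tested markers, 5 fell and none rose. The lower calls ranged between 4 (without late replicate 1) and 8 (without early replicate 3) and were 8 with DESeq2. A single marker, *Fbp1*, was called higher with DESeq2, without mid replicate 2 or without mid replicate 3. *Lsp1beta* (chromosome 2L, 898500 to 901316), a larval serum storage protein, was at 11838, 33088 and 21897 CPM in the 96 h libraries and 215, 104 and 109 CPM in the 120 h libraries (log2 fold change -7.29 ± 0.76, adjusted p = 2.09e-04). It was the gene with the largest loss of CPM in the comparison. *Lsp1alpha* fell from 8843 ± 3526 to 72.4 ± 37.4 CPM (log2 fold change -6.93 ± 1.0, adjusted p = 0.00118) and *apolpp*, the precursor of the lipoprotein lipophorin, fell from 4164 ± 2633 to 173 ± 59.7 CPM (log2 fold change -4.59 ± 0.49, adjusted p = 2.47e-04). *Lsp2* and *Fbp2* were not called (7293 to 1084 CPM and 371 to 99.8 CPM; adjusted p = 0.0204 and 0.0217) but were called lower by DESeq2, by limma voom and with the 6 libraries of 96 and 120 h alone. As given above, *Fbp1* of the same list was higher in all 3 late libraries. *Lsp1beta* had means of 1.01 and 0.588 CPM in sorted somatic cells at 96 and 120 h. In sorted germ cells its 96 h mean was 476 CPM, with 1428 CPM in germ mid replicate 1 and 1.23 and 0 CPM in the other 2 libraries. *Yp3*, a yolk protein made by adult fat body and follicle cells, fell from 333 ± 356 to 1.12 ± 0.429 CPM (log2 fold change -8.15 ± 0.98, adjusted p = 4.33e-04).

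Hemocyte, muscle and cuticle genes fell as well. Of 18 hemocyte markers, 7 fell and 2 rose. *Hml*, Hemolectin, was at 118, 394 and 111 CPM in the 96 h libraries and 2.69, 1.76 and 1.99 CPM in the 120 h libraries (log2 fold change -6.62 ± 0.73, adjusted p = 2.75e-04), and *PPO2*, a crystal cell prophenoloxidase, fell from 326 ± 230 to 7.92 ± 3.51 CPM (log2 fold change -5.36 ± 0.61, adjusted p = 3.33e-04). *Nplp2*, a secreted peptide precursor, was at 130, 554 and 198 CPM in the 96 h libraries and 0, 0.176 and 0.191 CPM in the 120 h libraries (log2 fold change -10.94 ± 1.34, adjusted p = 4.88e-04). *fon*, the clotting protein Fondue, fell from 2391 ± 1429 to 13.5 ± 1.6 CPM (log2 fold change -7.47 ± 0.62, adjusted p = 6.57e-05). Of 29 muscle genes, 12 fell and 3 rose: *up*, troponin T, was at 8.27, 29.4 and 6.5 CPM in the 96 h libraries and 0.158, 0 and 0.0383 CPM in the 120 h libraries (log2 fold change -8.05 ± 1.10, adjusted p = 8.69e-04), and *Tm2*, a muscle tropomyosin, fell from 14 ± 13.5 to 0.0255 ± 0.0442 CPM (log2 fold change -8.52 ± 1.17, adjusted p = 8.89e-04). Of 43 cuticle protein genes, 13 fell and none rose, among them *Lcp3* (from 21.8 ± 22.5 to 0.109 ± 0.0271 CPM; log2 fold change -7.52 ± 0.93, adjusted p = 5.12e-04). *su(r)*, the pyrimidine catabolic enzyme dihydropyrimidine dehydrogenase, was at 52.5, 198 and 93.4 CPM in the 96 h libraries and 0.079, 0.0441 and 0.115 CPM in the 120 h libraries (log2 fold change -10.36 ± 0.87, adjusted p = 6.59e-05), and *ana*, a secreted glial glycoprotein, fell from 39.3 ± 9.87 to 0.109 ± 0.063 CPM (log2 fold change -8.55 ± 0.46, adjusted p = 4.82e-06). limma voom did not call *su(r)*, *up*, *Tm2*, *Lcp3*, *Nplp2*, *Cyp4s3* or *GstD7*. The lower calls ranged between 3 (without late replicate 3) and 13 (without early replicate 1) for muscle and between 5 (without late replicate 3) and 15 (without mid replicate 1) for cuticle genes.

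The change in whole ovaries was set beside that in sorted somatic cells, whose 3 mid and 3 late libraries are independent of it. Of 9931 genes tested in somatic cells, 651 (6.56%) were called from 96 to 120 h, 306 higher (3.08%) and 345 lower (3.47%). Over the 9057 genes tested in both, the log2 fold changes had a Pearson r of 0.54 and a Spearman coefficient of 0.61, given as a description across genes, which are not independent replicates. Of the 552 genes that rose in whole ovaries and could be tested in somatic cells, 526 (95.3%) had a positive change there, and of the 695 that fell, 590 (84.9%) had a negative one. Somatic cells had 163 of the 579 rises (28.2%) and 201 of the 912 falls (22%) among their own calls, which are 53.3% and 58.3% of the somatic calls in each direction. Among the shared calls were *fru* (log2 fold change -2.99, adjusted p = 1.19e-05), *chinmo* (log2 fold change -2.73, adjusted p = 4.82e-05), *Gel* (log2 fold change -2.39, adjusted p = 3.50e-04) and *ed* (log2 fold change 2.74, adjusted p = 5.83e-04).

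A test of the difference between the 2 changes called 67 of 10929 genes (0.613%), 51 with a more negative and 16 with a more positive change in whole ovaries. Whole and sorted samples differ in strain, GFP driver, dissociation and sorting, which cannot be told apart from the tissue. The smallest adjusted p was that of *Ih*, a hyperpolarization-activated channel, which was at 53.9, 53.6 and 46.4 CPM in the 96 h libraries and 3.16, 3.26 and 3.63 CPM in the 120 h libraries, against means of 63.4 and 29.6 CPM in somatic cells (difference -2.75 ± 0.19, adjusted p = 9.10e-07). *Orct2*, an organic cation transporter (from 49.1 ± 6.74 to 2.97 ± 0.931 CPM; difference -2.74 ± 0.26, adjusted p = 2.99e-05), *sev*, a receptor tyrosine kinase (from 264 ± 31.4 to 7.51 ± 2.96 CPM; difference -3.60 ± 0.38, adjusted p = 9.19e-05), and *SP1173* (from 131 ± 29.7 to 1.34 ± 0.308 CPM; difference -4.25 ± 0.44, adjusted p = 7.61e-05) fell in both and more in whole ovaries.

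*AOX3*, an aldehyde oxidase (116 to 23.5 CPM in whole ovaries, 120 and 102 CPM in somatic cells), and the uncharacterized genes *CG18135* (125 to 22.6 CPM, 80.3 and 97.4 CPM) and *CG9338* (145 to 7.53 CPM, 53 and 30 CPM) fell in whole ovaries and were not called in somatic cells. Their differences were -1.99 ± 0.22, adjusted p = 1.16e-04, -2.67 ± 0.29, adjusted p = 9.19e-05 and -3.35 ± 0.36, adjusted p = 9.19e-05. In the ecdysone cascade, *Eip78C* rose more in whole ovaries than in somatic cells (difference 3.22 ± 0.29, adjusted p = 2.99e-05; somatic means 35.6 and 101 CPM), as did *Eip75B* (difference 1.31 ± 0.22, adjusted p = 0.0049; somatic means 99.8 and 258 CPM). *Kr-h1* rose in whole ovaries and had somatic means of 116 and 85.3 CPM (difference 1.83 ± 0.32, adjusted p = 0.00711). *d* rose in both (difference 3.25 ± 0.58, adjusted p = 0.00812; somatic means 5.76 and 67.1 CPM). The difference for *Hr3* was 2.99 ± 1.5, adjusted p = 0.458, and its somatic means were 2.66 and 160 CPM. The count of 67 was 42, 26, 29 and 24 without whole mid replicate 3 and whole late replicates 1, 2 and 3, and 42, 29, 28 and 30 without somatic mid replicate 3 and somatic late replicates 1, 2 and 3.

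**Figure D5:**
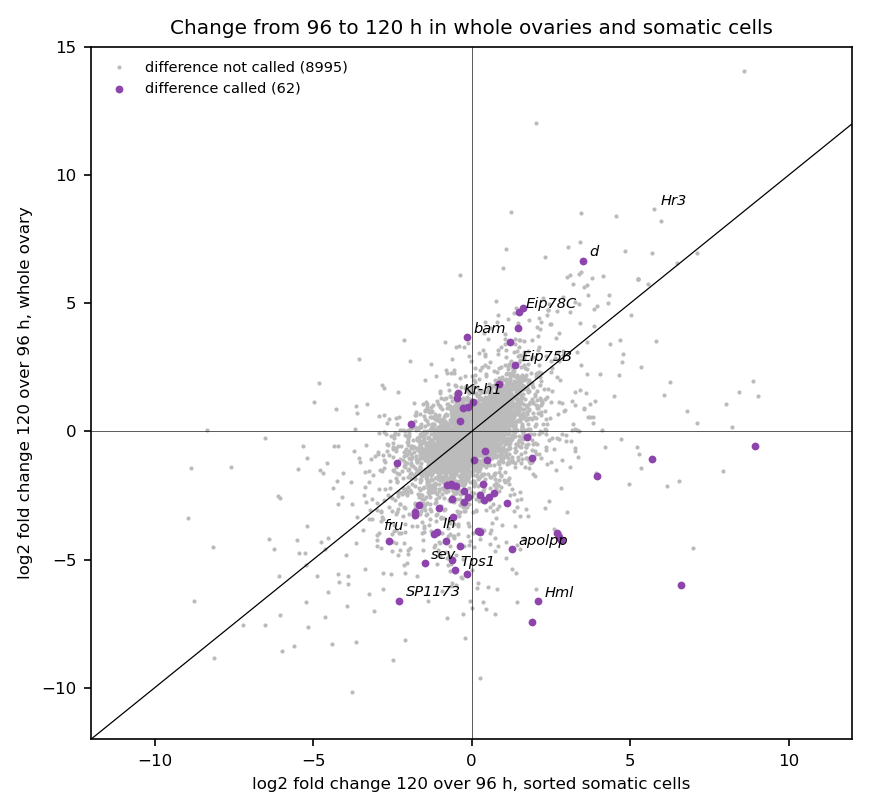
Log2 fold change from 96 to 120 h in whole ovaries (vertical axis) against that in sorted somatic cells (horizontal axis) for 9057 genes tested in both. Purple points are the 62 of these genes whose changes differed, gray points the other 8995, and the diagonal marks equal change. *apolpp* and *Hml*, both low in sorted somatic cells, lie far below the diagonal, and *d*, *Eip78C* and *bam* above it.

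Genes that differed between germ and somatic cells in the sorted libraries were divided by that test. Of 1348 genes higher in somatic cells, 206 (15.3%) rose and 170 (12.6%) fell in whole ovaries. Of 1318 genes higher in germ cells, 31 (2.35%) rose and 95 (7.21%) fell. Of 6921 genes called in neither, 323 (4.67%) rose and 500 (7.22%) fell, and of 473 not tested in sorted cells 19 rose and 147 (31.1%) fell.

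The genes that rose were long. Their median span in the BDGP6 annotation was 8560 bp, against 2455 bp for those that fell and 2609 bp for all tested genes, and 28.4% of them spanned 20000 bp or more, against 5.5% and 8.03%. Among genes at 10 CPM or more in sorted cells, the medians were 9318, 2970 and 3085 bp. By chromosome arm, the share that rose ranged from 5.16% on X to 6.58% on 3L, and the share that fell from 7.39% on 3L to 10.8% on 2R, apart from the 91 tested genes of chromosome 4, of which 8 rose and 3 fell. The longest run of neighboring tested genes called in 1 direction held 7 genes on 2L, the *NimB1* to *NimB5* cluster with *Vajk2* and *Vajk3*, all lower. Shorter runs of 4 lower genes held *Lcp1* to *Lcp4* on 2R, *GstD9* with *GstD1* to *GstD3* on 3R, and *AOX1* to *AOX3* with *CG31296* on 3R. These runs were chosen after their values were seen, and the calls of their genes were taken from the fit of all 9 libraries only. The only run of 4 higher genes was *tal-1A*, *tal-2A*, *tal-3A* and *tal-AA*, whose values were identical in every library, so that they count as 1 measurement.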

How the data were processed

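Pools of ovaries were sequenced as poly(A) RNA in single-end reads of 50 bp. Per the labels and methods, the authors demultiplexed and trimmed reads with bcl2fastq 2.2, aligned them with STAR 2.7.6a to the FlyBase r6.36 genome and annotation, and deposited expected counts per gene from RSEM 1.3.3, summed over the runs of a sample and not normalized. Such counts divide reads shared by near-identical genes, so that members of multigene families (GstD, Lcp, NimB, ribosomal proteins) are less certain than single genes. The authors tested them with DESeq2 1.26.0.

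Here the expected counts were rounded to whole numbers, filtered with filterByExpr (minimum count 10, minimum total 15), scaled by TMM and fitted with the robust quasi-likelihood test of edgeR 4.0.16 (R 4.3.3) over the 9 whole ovary libraries. Genes were called at a Benjamini-Hochberg adjusted p under 0.01, and every adjusted p in the text is from this tool unless another is named. Somatic and germ libraries were fitted in the same way, each tissue with its own scaling, and the difference between tissues was the interaction term of a joint fit. CPM are the counts after scaling, ± is the SD over 3 libraries for levels and the standard error for log2 fold changes. The labels give the libraries as separate samples of a stage, so p-values measure the spread between them, whether biological or technical. Depth ranged from 11615879 to 23310275 counts in the libraries compared. Positions are those of Ensembl release 115 for BDGP6.

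Named genes were the 15 with the highest and the 15 with the lowest log2 fold change among called genes with a mean of 10 CPM or more in the higher stage, the 5 called genes with the largest CPM difference in each direction, members of the ecdysone, ecdysteroid, terminal filament and Wnt lists, up to 6 called and 3 abundant uncalled members of each of the other lists, 6 germ and somatic markers, and the 10 genes with the smallest adjusted p for the difference from somatic cells. There were 70 lists, and those of no result in the text are not described. The members and lists were chosen with earlier results of these data known. Alternatives were other scalings, filters and tools (DESeq2 1.42.0, limma 3.58.1), equal depth, a replicate block and the omission of each library. The tests were tried on simulated data, in which edgeR recovered 12% of genes changed by 2-fold and 57% of those changed by 4-fold for the whole ovary comparison. DESeq2 recovered 42% and 72% of them, but 23 of its 137 calls were false, against 0 of 69 for edgeR. The simulated spread was that estimated by edgeR and the genes tested differed, so the tools were not tried on equal terms. A result that is withheld is not reported here. Long-form copies of the counts were not used.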

Additional observations from a re-analysis of the deposited data

Results flagged for a closer look

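Of the genes named here, 21 changed differently from 96 to 120 h in whole ovaries and in sorted somatic cells by the interaction test of edgeR (adjusted p under 0.01). The difference, whole ovary minus somatic log2 fold change, was positive for 5 genes, 3.90 for *bam*, 3.25 for *d*, 3.22 for *Eip78C*, 1.83 for *Kr-h1* and 1.31 for *Eip75B*. It was negative for the other 16. The most negative values were -13.53 for *up*, -13.03 for *Lcp3*, -8.84 for *fon*, -8.10 for *Hml*, -5.73 for *apolpp*, -4.84 for *Tps1*, -4.25 for *SP1173*, -3.60 for *sev* and -3.35 for *CG9338*. The smaller ones were -2.96 for *ap*, -2.75 for *Ih*, -2.74 for *Orct2*, -2.67 for *CG18135*, -1.99 for *AOX3*, -1.52 for *vari* and -1.11 for *Wnt2*. Genes of fat body (*apolpp*), hemocytes (*Hml*), muscle (*up*) and cuticle (*Lcp3*) are among those with the most negative values, and the part of nonovarian tissue in them was not tested. *up*, *Lcp3* and *fon* had too few counts to be tested in somatic cells alone, so that the size of their differences rests on somatic levels near 0 and is no measure of fold. Somatic levels were low for others too. All 7 hemocyte markers that fell, *Hml* among them, had a sorted-cell level under 1 CPM. The 9 fat body markers, *apolpp* included, summed to at most 9.77 CPM in somatic cells of 96 and 120 h. The 6 germ cell markers, *bam* included, summed to 11.6 to 29.4 CPM there. Of all 67 genes with a called difference, 9 had a level under 1 CPM in the sorted cells.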

How the results depend on the processing

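None of the 287 named genes that were called changed direction under any alternative, and 133 of them kept their call under every one. Of the 249 that were not called, 46 changed sign under at least 1 alternative. The number of genes called from 96 to 120 h was 2809 with DESeq2 (1299 higher, 1510 lower), 2618 with the 6 libraries of these stages alone (1196 and 1422), 3214 at an adjusted p under 0.05, and 1145 with limma voom, where 584 were lower. When 1 library was left out it ranged from 695 to 2939, with 291 to 1339 higher and 403 to 1600 lower. Library totals without scaling, chosen after seeing the data, gave 683 higher and 720 lower and moved the median log2 fold change of all genes from -0.11 to 0.10, and the fit without a filter gave 645 and 781. The fit of only genes at 1 CPM or more in sorted cells, also chosen after seeing the data, gave 572 and 703. The same-numbered libraries of the stages had correlations of 0.16, 0.04 and 0.05 in their deviations from stage means. Those of unlike numbers ran from -0.1 to 0.05. With 3 libraries per stage these values cannot decide whether the numbers pair them. With a replicate block there were 998 calls, 384 higher and 614 lower. The number of genes that differed from somatic cells was 332 with DESeq2, 115 with the 12 libraries of 96 and 120 h alone, and 24 to 73 when 1 library was left out. The cause of these shifts was not tested. Depth limits genes near 3 counts per library, 0.129 to 0.258 CPM.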
